A study of Mus musculus with 20 samples.

Results

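The response of RGS10 knockout BV-2 cells to interferon gamma (IFNγ) was measured in 10 of the 20 libraries of the series, chosen by their labels alone. Of these, 5 libraries came from cells labelled RGS10 knockout and given IFNγ at 10 ng/mL for 48 h, and 5 from cells with the same genotype label given medium alone (vehicle) for 48 h. The other 10 libraries came from wild-type BV-2 cells under the same IFNγ and vehicle conditions, and they serve here only for the spread and for the difference of the responses. BV-2 is an immortalized murine microglial line, and all libraries were made from poly(A)-enriched RNA. In each group, replicates 1 to 3 were labelled batch 1, replicate 4 batch 2 and replicate 5 batch 3. The labels give neither the way the knockout was made, nor whether the line is 1 clone, nor the history of the cultures, so the p-values reflect spread among these libraries, part of which may be technical. RNA was taken from whole cultures, and fewer cells of a type and less RNA per cell cannot be told apart.

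IFNγ binds a receptor made of IFNGR1 and IFNGR2, whose associated kinases JAK1 and JAK2 activate transcription factors that bind gamma-activated sites (GAS). The factors induced in turn, IRF1 among them, act with other IRFs at interferon-stimulated response elements (ISRE). In macrophages and microglia this programme is known for guanylate-binding proteins, antigen presentation, nitric oxide production and chemokines, while SOCS proteins restrain it. RGS10 is a member of the RGS protein family, whose members shorten signalling by heterotrimeric G proteins through faster hydrolysis of GTP.

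Promoter windows of genes whose transcripts rose are shown first, because they hold the letters of these elements. The GAS letters searched were TTCNNNGAA and the ISRE letters were 2 GAAA blocks set 2 bases apart, on both strands, from 250 bases before to 50 bases after each start in RefSeq on GRCm38.p6. Of 27025 genes with such a promoter, 9.55% held the GAS letters and 3.99% the ISRE letters. A panel of known IFNγ targets and microglial genes held 23 members that rose, of which 18 had a promoter in the table. Of these, 7 held a match in the 250 bases before the start, the only part searched for the panel. In that part 8.13% of all genes with a promoter held the GAS letters and 3.46% the ISRE letters. In the windows below, which run 5′ to 3′ along the strand of the gene, capitals mark the match.
Socs1: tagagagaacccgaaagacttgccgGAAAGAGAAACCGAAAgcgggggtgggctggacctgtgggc
Irf1: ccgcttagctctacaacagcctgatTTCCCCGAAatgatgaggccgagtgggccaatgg
Irf8: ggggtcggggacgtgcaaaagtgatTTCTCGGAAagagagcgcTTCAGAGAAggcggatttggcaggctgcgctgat
Gbp2: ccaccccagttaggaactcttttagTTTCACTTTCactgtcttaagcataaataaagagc
Cxcl10: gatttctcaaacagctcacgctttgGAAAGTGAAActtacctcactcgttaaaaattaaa
B2m: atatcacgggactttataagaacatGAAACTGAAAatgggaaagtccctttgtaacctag
Aif1: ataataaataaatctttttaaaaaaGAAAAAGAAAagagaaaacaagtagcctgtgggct
The Socs1 window (chr16:10785579-10785644, minus strand) held 2 overlapping ISRE matches between 83 and 68 bases before the start. The Irf1 window (chr11:53769899-53769957, plus strand) held 1 GAS match 90 to 82 bases before the start, and that of Irf8 (chr8:120736162-120736238, plus strand) held 2 GAS matches between 171 and 145 bases before it. Single ISRE matches lay 59 to 50 bases before the start of Gbp2 on the opposite strand (chr3:142620579-142620638, plus strand) and 213 to 204 bases before that of Cxcl10 (chr5:92349068-92349127, minus strand). The remaining ISRE matches lay 139 to 130 bases before the start of B2m (chr2:122147523-122147582, plus strand) and 157 to 148 bases before that of Aif1 (chr17:35176175-35176234, minus strand). A match is a description of letters and not a binding site. Only 71.96% of the tested genes, and 184 of the 327 that rose by more than 3 log2, had a promoter in the table, so a comparison of shares by size of response was void.

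The 10 knockout libraries held 19570654 to 27614720 counts each. The IFNγ libraries of batches 2 and 3 stood apart from the rest: Malat1, a nuclear RNA, was at 1446 and 1004 CPM of plain library totals there, against 55.9 to 62.7 CPM in the IFNγ libraries of batch 1 and 51.4 to 134 CPM in vehicle libraries. Neat1, another nuclear RNA, was at 2186 and 507 CPM in those libraries, against 86.2 to 104 CPM in the IFNγ libraries of batch 1 and 33.7 to 160 CPM in vehicle libraries. Their TMM scaling factors were 0.892 and 0.879, against 1.05 to 1.06 in the IFNγ libraries of batch 1 and 1.07 to 1.12 in vehicle libraries. The part of this difference in RNA makeup in the results below was not tested, and within-batch values are given for several of them. Of 19 macrophage and microglia markers 18 could be tested, the microglial factor Sall1 was at 0, and the list summed to 4728 to 6240 CPM in IFNγ libraries and 3217 to 4189 CPM in vehicle libraries. Markers of other cell types summed to 1.10 to 2.99 CPM (IFNγ) and 0.323 to 1.80 CPM (vehicle) for neurons, and to 2.21 to 4.85 CPM (IFNγ) and 1.82 to 3.41 CPM (vehicle) for lymphocytes. Endothelial and fibroblast markers summed to 355 to 930 CPM with IFNγ and 322 to 527 CPM with vehicle, nearly all of it from the receptor genes Flt1 (181 to 772 CPM with IFNγ, 108 to 176 CPM with vehicle) and Kdr (30.9 to 214 CPM with IFNγ, 213 to 365 CPM with vehicle), while Cldn5, Col1a2 and Col3a1 were at 0. Oligodendrocyte markers summed to 23.1 to 49.8 CPM with IFNγ and 40.5 to 42.8 CPM with vehicle, with Mog, Mobp and Olig1 at 0. Sums for astrocytes (0.342 to 0.851 CPM with IFNγ, 0.156 to 0.606 CPM with vehicle) and for neutrophils and mast cells (0.851 to 3.08 CPM with IFNγ, 0.144 to 0.402 CPM with vehicle) were below 4 CPM. The part of these markers in the results was not tested. Of 10 mitochondrially encoded genes 1 rose and none fell, but none rose without IFNγ replicate 4 or 5. With vehicle replicate 2 or 3 or wild-type IFNγ replicate 4 left out, 1 fell. Their median of 0.14 log2 was −0.13 and −0.15 log2 without IFNγ replicates 4 and 5. Dendritic cell markers, which include interferon-inducible genes, summed to 416 to 723 CPM with IFNγ and 249 to 269 CPM with vehicle.

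The targeted gene was read in every knockout library. Rgs10 had 21.1, 17.8, 17.1, 50.5 and 15.5 CPM in IFNγ-treated knockout cells (replicates 1 to 5), against 30.3, 25.6, 28.2, 34.6 and 22.6 CPM in vehicle-treated knockout cells. The groups overlapped, because the IFNγ library of batch 2 was the highest of all 10. The fitted change was −0.33 ± 0.17 log2 (SE; edgeR adjusted p = 0.125), and the exact two-sided permutation test of IFNγ against vehicle libraries, which takes no account of batch, gave p = 0.651. Cells labelled knockout averaged 28.2 ± 4.56 CPM under vehicle and wild-type cells 63.0 ± 6.62 CPM (SD, n = 5 each). Without the IFNγ library of batch 2 the change in knockout cells was −0.54 log2 and passed the test, likewise −0.46 log2 without the vehicle library of batch 2, and without the IFNγ library the exact permutation p was 0.0159. A count summed over the gene cannot tell an intact from a disrupted transcript.

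IFNγ changed the knockout cells widely. Of 13755 genes tested, 21.4% rose and 21.8% fell (edgeR quasi-likelihood test with batch as a term, Benjamini-Hochberg adjusted p under 0.05), which are the background shares for every count of rises and falls below. Changes over 1 log2 were more often rises (10.8% of tested genes) than falls (6.04%). The median over all tested genes was −0.016 log2 and 49.5% of the called genes were rises. With plain library totals in place of TMM the median was −0.16 log2 and 38.5% of the called genes were rises, so small changes of lists are to be read against that shift. Among the called genes 5609 (40.8% of those tested) had the same sign in batches 1, 2 and 3. In 13.4% of tested genes all 5 IFNγ libraries lay above all 5 vehicle libraries, and in 14.2% all lay below. Levels are given below as counts normalised to sequencing depth (CPM) on TMM-scaled library sizes, in the order of replicates 1 to 5, and fitted changes as log2 of IFNγ over vehicle ± SE. Many genes of the interferon families have near-identical copies (guanylate-binding proteins, class I heavy chains, Serpina3 and Bcl2a1 genes), and how reads were split between copies is uncertain.

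**Figure D1:**
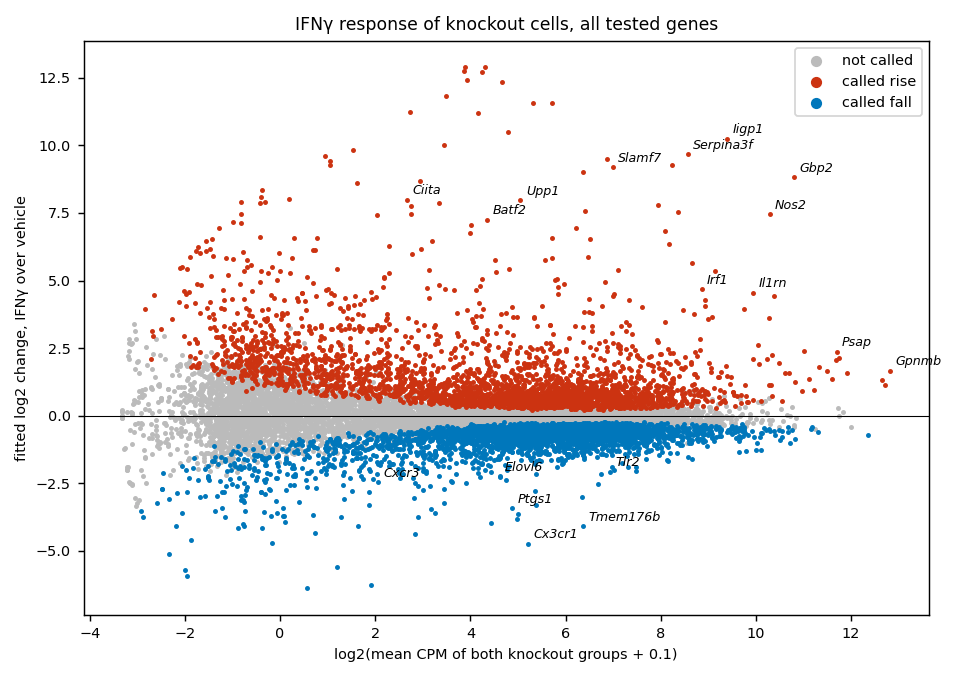
Fitted log2 change, IFNγ over vehicle, of each tested gene in knockout cells (y) against log2 of its mean CPM over both knockout groups plus 0.1 (x). Red points are called rises, blue points called falls and grey points genes not called, and rises reach larger sizes than falls.

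In the signalling pathway itself, transcripts of the receptor chains did not rise, while those of the kinase gene Jak2 and of the feedback inhibitors did. Of 24 tested genes of the receptor, JAK, STAT and SOCS families 12 rose and 3 fell (median 0.36 log2, against −0.016 over all genes). Ifngr1, the ligand-binding chain, had 29.8, 33.4, 30.7, 21.0 and 28.3 CPM in IFNγ-treated knockout cells, against 44.4, 47.6, 42.5, 41.3 and 35.0 CPM in vehicle-treated knockout cells. All IFNγ libraries lay below all vehicle libraries, and the fall was −0.56 ± 0.11 log2 (edgeR adjusted p = 5.05e-04), although it was not called from batches 2 and 3 alone. Ifngr2, the signalling chain, was at −0.29 ± 0.12 log2 and did not pass the test (edgeR adjusted p = 0.0523). Leaving out the vehicle library of batch 3 brought Ifngr2 past it at −0.37 log2, and so did leaving out any of 4 wild-type libraries.

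Jak2 rose by 1.80 ± 0.23 log2. Socs1, whose product inhibits JAK kinases and whose promoter window is shown above, had 30.7, 26.2, 27.3, 54.0 and 137 CPM with IFNγ, against 1.33, 1.33, 0.732, 0.505 and 1.66 CPM with vehicle. The lowest IFNγ library thus lay far above the highest vehicle library, and the batch 3 IFNγ library was the highest of all (5.43 ± 0.42 log2, edgeR adjusted p = 8.63e-09). The related inhibitors Socs3 and Cish rose by 2.87 ± 0.37 and 2.61 ± 0.38 log2.

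Of 13 tested IRF and BATF transcription factor genes 6 rose and 2 fell (median 0.11 log2, and −0.028 log2 with plain library totals). The falls numbered 1 without the vehicle library of replicate 4 or 5 or the IFNγ library of replicate 2 or 3, and the median was −0.016 log2 without vehicle replicate 5, 0.23 log2 without vehicle replicate 4 and 0.19 log2 without IFNγ replicate 4. Irf1, an early transcription factor of the interferon response, had 608, 560, 575, 1344 and 1394 CPM in IFNγ-treated knockout cells, against 38.2, 36.4, 34.0, 23.4 and 28.3 CPM in vehicle-treated knockout cells. Irf8, a myeloid factor that pairs with IRF1 and PU.1, had 886, 851, 891, 2406 and 3160 CPM with IFNγ, against 80.4, 85.9, 79.6, 105 and 84.6 CPM with vehicle. For both genes the groups lay far apart and the IFNγ libraries of batches 2 and 3 were the highest, with rises of 4.68 ± 0.33 log2 for Irf1 (edgeR adjusted p = 2.22e-09) and 3.96 ± 0.36 log2 for Irf8 (edgeR adjusted p = 7.85e-08). Batf2, a factor of activated macrophages, had 38.5, 41.5, 43.2, 26.5 and 51.8 CPM with IFNγ, against 0.541, 0.161, 0.388, 0.194 and 0 CPM with vehicle. It was close to absent under vehicle and rose by 7.25 ± 0.35 log2 (edgeR adjusted p = 1.15e-11). Irf4, which is tied to alternative macrophage activation, fell by 1.31 on the log2 scale.

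The interferon-inducible GTPases, which attack the vacuoles of intracellular pathogens, were the lists with the highest medians among those described here. All 11 guanylate-binding protein genes tested rose (median 5.83 log2), and 11 of 12 immunity-related GTPase genes rose (median 4.41 log2). Gbp2 had 2688, 2690, 2796, 3480 and 6129 CPM in IFNγ-treated knockout cells, against 10.9, 9.36, 10.8, 4.16 and 4.00 CPM in vehicle-treated knockout cells. The vehicle libraries of batches 2 and 3 were the lowest and the IFNγ library of batch 3 the highest, and the rise was 8.83 ± 0.67 log2 (edgeR adjusted p = 7.17e-09). Gbp5, which also promotes inflammasome assembly, rose by 9.004 ± 0.44 log2 and Iigp1, which disrupts parasite vacuoles, by 10.24 ± 0.65 log2. Irgq, an atypical family member, was the exception at 0.33 ± 0.32 log2 (edgeR adjusted p = 0.412). The guanylate-binding list had medians of 5.53, 5.34 and 6.10 log2 within batches 1, 2 and 3.

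**Figure D2:**
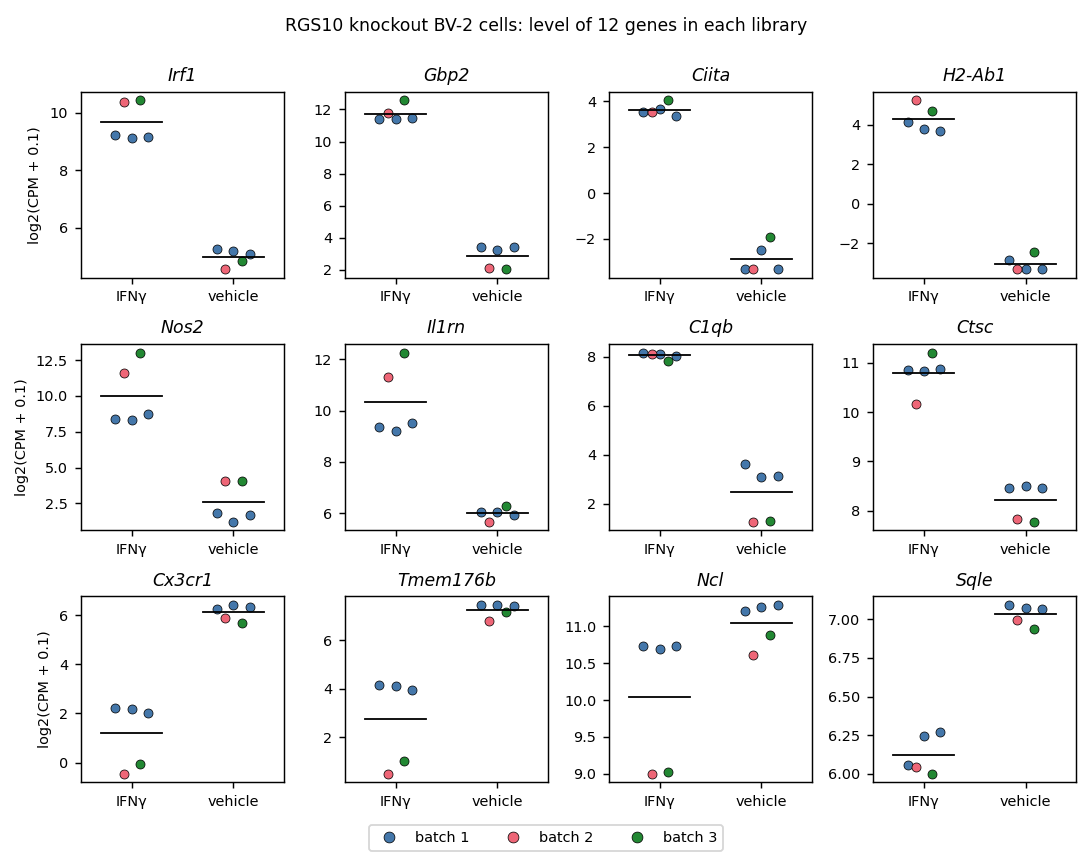
Levels of 12 genes in each knockout library, as log2(CPM + 0.1), with IFNγ to the left of vehicle. Points are libraries coloured by batch and bars are group means of the log2 values, and the 2 groups are separate in every panel except that of Ncl.

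Transcripts of antigen presentation genes rose along both routes. Ciita, the master transactivator of MHC class II genes, had 11.5, 12.4, 10.0, 11.5 and 16.5 CPM in IFNγ-treated knockout cells, against 0, 0.0803, 0, 0 and 0.162 CPM in vehicle-treated knockout cells. It was read in only 2 of the vehicle libraries, and the fitted rise was 7.98 ± 0.43 log2 (edgeR adjusted p = 5.12e-11). H2-Ab1, the beta chain of the class II molecule I-A, had 17.6, 13.97, 12.8, 38.1 and 25.8 CPM with IFNγ, against 0.0361, 0, 0, 0 and 0.0809 CPM with vehicle. Of 15 tested genes of the class II list 8 rose and none fell (median 1.596 log2). Ifi30, a thiol reductase of antigen processing, did not pass the test at −0.20 ± 0.17 log2 (edgeR adjusted p = 0.345).

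On the class I route, 14 of 15 tested heavy chain genes rose (median 2.12 log2). H2-T23, which encodes the nonclassical molecule Qa-1, had 775, 724, 729, 1356 and 1145 CPM in IFNγ-treated knockout cells, against 70.5, 70.5, 67.0, 79.6 and 88.5 CPM in vehicle-treated knockout cells. The groups were an order of magnitude apart in every batch (3.59 ± 0.17 log2, edgeR adjusted p = 7.15e-12). B2m, the shared light chain, had 4240, 4022, 4179, 10033 and 7102 CPM with IFNγ, against 1886, 1907, 1795, 1983 and 1540 CPM with vehicle. The IFNγ libraries of batches 2 and 3 were the highest, and B2m rose by 1.58 ± 0.22 log2 (edgeR adjusted p = 1.16e-05). Nlrc5, the class I transactivator, rose by 2.14 ± 0.14 log2.

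Of 16 genes of peptide loading and the immunoproteasome 13 rose and 2 fell (median 1.06 log2), with 1 fall without vehicle or IFNγ replicate 4. Psmb9, an immunoproteasome catalytic subunit, had 225, 210, 214, 228 and 122 CPM with IFNγ, against 41.8, 37.4, 40.9, 27.3 and 23.9 CPM with vehicle. The batch 3 library was the lowest of the IFNγ group and still lay above every vehicle library (2.55 ± 0.15 log2, edgeR adjusted p = 1.88e-10). Tap1, a subunit of the peptide transporter, rose by 2.85 ± 0.20 log2. The 31 genes of the constitutive proteasome held 1 rise and 2 falls and a median of −0.089 log2 (0.030, −0.22 and −0.42 log2 within batches 1, 2 and 3), but 7 fell under plain library totals and 13 rose in batch 1 alone. Leaving out 1 library gave 1 to 2 rises and 1 to 4 falls.

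The antiviral genes, which are shared with the type I interferon response, rose less evenly. Of 35 tested antiviral genes 18 rose and 2 fell (median 0.67 log2), and of 20 genes for sensors of nucleic acid and bacterial products 14 rose and 3 fell (median 0.72 log2). Ifit2, which restrains translation of foreign RNA, had 176, 183, 197, 315 and 320 CPM in IFNγ-treated knockout cells, against 43.2, 46.5, 46.9, 26.7 and 26.8 CPM in vehicle-treated knockout cells. The groups did not overlap, and the rise was 2.65 ± 0.26 log2 (edgeR adjusted p = 1.63e-07). Zbp1, a sensor of Z-form nucleic acid, rose by 4.42 ± 0.39 log2. Samhd1, which breaks down deoxynucleotides, rose by 2.09 ± 0.41 log2.

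Other members went the opposite way. Oas2, an oligoadenylate synthetase, had 46.8, 58.5, 52.6, 41.6 and 27.3 CPM with IFNγ, against 99.7, 104, 108, 55.8 and 67.2 CPM with vehicle. Each IFNγ library lay below the vehicle libraries of its own batch, although the groups overlapped across batches, and the fall was −0.92 ± 0.12 log2 (edgeR adjusted p = 6.94e-06). Ddx58, which encodes the RNA sensor RIG-I, fell by 1.03 on the log2 scale. Neither Oas2 nor Ddx58 is in the list of 20 sensor genes, where the lowest change was −0.45 log2. The 3 falls of that list are other genes. Their count was 1 without vehicle replicate 1, 3 or 4, and 1 without IFNγ replicate 4 or 5.

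Chemokine ligands rose in most cases. Of 12 CC chemokine genes 9 rose and 1 fell (median 2.79 log2), and of 8 CXC chemokine genes 4 rose and 1 fell (median 1.38 log2), with 2 CXC falls without IFNγ replicate 4. Ccl12, a monocyte attractant, rose by 6.56 ± 0.53 log2. Cxcl10, a ligand of CXCR3, had 142, 149, 146, 83.3 and 61.5 CPM in IFNγ-treated knockout cells, against 42.8, 42.9, 41.2, 15.8 and 25.8 CPM in vehicle-treated knockout cells. All IFNγ libraries lay above all vehicle libraries, with batches 2 and 3 lower in both groups (1.86 ± 0.30 log2, edgeR adjusted p = 6.56e-05).

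Cxcl2, a neutrophil attractant, had 33.2, 24.1, 29.7, 147 and 97.3 CPM with IFNγ, against 4.26, 5.18, 5.64, 22.2 and 24.4 CPM with vehicle. Batches 2 and 3 were higher in both groups, so the groups just overlapped across batches, and Cxcl2 rose by 2.46 log2. Ccl9, a constitutive macrophage chemokine, had 11.2, 10.1, 10.5, 11.8 and 7.73 CPM with IFNγ, against 91.4, 82.6, 78.9, 58.5 and 47.9 CPM with vehicle. It was the CC ligand that fell, by 2.79 on the log2 scale (SE 0.19, edgeR adjusted p = 9.07e-10), with no overlap.

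The receptors for chemoattractants were split. Of 19 tested 7 rose and 8 fell. The list median of −0.26 log2 has no stable sign: it was −0.22, −0.94 and 0.071 log2 within batches 1, 2 and 3, 0.28 and 0.31 log2 without vehicle replicates 2 and 3, and 0.10 and 0.095 log2 without IFNγ replicates 1 and 2. Ccr1, a receptor for inflammatory CC chemokines, rose by 3.93 ± 0.40 log2. Cxcr3, the receptor for Cxcl10, had 2.55, 2.39, 1.88, 0 and 0.291 CPM in IFNγ-treated knockout cells, against 7.11, 8.63, 7.11, 5.48 and 5.09 CPM in vehicle-treated knockout cells. It fell by 2.45 on the log2 scale (SE 0.49, edgeR adjusted p = 5.0e-04) and was close to absent in the IFNγ libraries of batches 2 and 3. Gpr183, a receptor for oxysterols, fell by 2.43 on the log2 scale.

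Among 28 genes of cytokines and their inhibitors 20 rose and 2 fell (median 1.63 log2), and the inhibitor genes Il1rn and Il18bp were among the rises. Il1rn, the IL-1 receptor antagonist, had 655, 593, 724, 2576 and 4939 CPM in IFNγ-treated knockout cells, against 65.2, 66.6, 60.9, 50.6 and 77.6 CPM in vehicle-treated knockout cells. Il18bp, which neutralizes IL-18, had 16.4, 19.5, 19.0, 33.4 and 32.9 CPM with IFNγ, against 0.830, 0.723, 1.12, 1.17 and 0.809 CPM with vehicle. Neither gene overlapped between groups, and both were highest in the IFNγ libraries of batches 2 and 3, with rises of 4.54 ± 0.40 log2 for Il1rn (edgeR adjusted p = 4.92e-08) and 4.65 ± 0.26 log2 for Il18bp (edgeR adjusted p = 7.29e-11). Il16, a ligand of CD4, fell by 0.93 on the log2 scale.

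Il1b, the cytokine that Il1rn opposes, did not move the same way in every batch. It had 0.516, 0.809, 0.556, 2.38 and 21.0 CPM with IFNγ, against 0.758, 0.723, 0.818, 0.272 and 1.46 CPM with vehicle. The fitted rise was 1.59 log2 (edgeR adjusted p = 0.0289), with −0.28, 2.77 and 3.77 log2 within batches 1, 2 and 3. Without the IFNγ library of replicate 5 it was 0.60 log2 and no longer passed, and it also did not pass without the IFNγ library of replicate 4 (1.48 log2) or the vehicle libraries of replicates 4 (1.34 log2) and 5 (1.18 log2).

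Of 16 genes for NF-κB subunits and inhibitors 10 rose and 1 fell (median 0.49 log2, and 0.33 log2 without IFNγ replicate 4), with 6 rises under plain library totals. The rises included feedback genes such as Tnfaip3, which encodes the ubiquitin-editing inhibitor A20 (2.48 ± 0.34 log2), and Nfkbiz (2.18 ± 0.33 log2), while the subunit gene Nfkb1 was at −0.095 ± 0.12 log2 (edgeR adjusted p = 0.561). Of 25 AP-1, EGR and dual-specificity phosphatase genes 17 rose and 2 fell (median 1.19 log2). Egr2, an immediate early transcription factor, had 18.0, 20.3, 19.3, 159 and 168 CPM in IFNγ-treated knockout cells, against 4.15, 4.86, 3.40, 2.68 and 1.94 CPM in vehicle-treated knockout cells. The IFNγ libraries of batches 2 and 3 stood well above those of batch 1, and the rise was 3.65 ± 0.51 log2. Dusp1, which inactivates MAP kinases, rose by 3.81 ± 0.26 log2.

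Enzymes of inflammatory metabolism showed some of the widest gaps between groups. Nos2, the inducible nitric oxide synthase, had 339, 319, 426, 3051 and 8323 CPM in IFNγ-treated knockout cells, against 3.54, 2.25, 3.14, 16.4 and 16.3 CPM in vehicle-treated knockout cells. Batches 2 and 3 were the highest in both groups, the groups did not overlap, and the rise was 7.44 ± 0.42 log2 (edgeR adjusted p = 9.77e-11). Acod1, which makes itaconate, had 2207, 2258, 2354, 1379 and 4649 CPM with IFNγ, against 131, 129, 132, 59.9 and 109 CPM with vehicle (4.43 ± 0.33 log2). Of the 17 genes of nitric oxide, arginine, tryptophan and itaconate metabolism 7 rose and 5 fell (median 0.77 log2). The arginine transporter genes moved in opposite directions, with Slc7a2 at 2.21 ± 0.31 log2 and Slc7a1 at −0.93 ± 0.14 log2, both called.

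The cyclooxygenases also parted. Ptgs2, the inducible enzyme of prostaglandin synthesis, had 271, 267, 394, 1256 and 3349 CPM with IFNγ, against 11.3, 12.01, 11.9, 24.2 and 30.3 CPM with vehicle. Ptgs1, the constitutive enzyme, had 6.06, 5.07, 6.25, 3.12 and 4.36 CPM with IFNγ, against 57.5, 63.6, 60.9, 42.2 and 44.7 CPM with vehicle. Neither overlapped between groups, and the changes were 5.37 ± 0.34 log2 for Ptgs2 (edgeR adjusted p = 3.13e-10) and −3.42 ± 0.26 log2 for Ptgs1 (edgeR adjusted p = 6.21e-09). Of 15 prostaglandin and leukotriene genes 7 rose and 5 fell (median 0.27 log2). Pla2g7, which inactivates platelet-activating factor, had 1.62, 0.985, 1.37, 37.6 and 24.9 CPM with IFNγ and was read in 1 of the vehicle libraries, at 0.215 CPM.

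Oxidant defence, iron and nucleoside genes held single large rises. Prdx1, a peroxiredoxin, had 1888, 1800, 1970, 4808 and 7160 CPM in IFNγ-treated knockout cells, against 592, 542, 511, 598 and 603 CPM in vehicle-treated knockout cells. The IFNγ libraries were higher in every batch, and most so in batches 2 and 3 (2.41 log2). Gclm, a subunit of the enzyme that limits glutathione synthesis, rose by 2.06 ± 0.21 log2, within a list of 26 NADPH oxidase and oxidant defence genes of which 10 rose and 3 fell (median 0.12 log2, and −0.027 log2 with plain library totals). That median was 0.20, −0.0075 and 0.43 log2 within batches 1, 2 and 3, and 0.053 and 0.049 log2 without vehicle and IFNγ replicate 5. Among 14 iron-handling genes 7 rose and 3 fell. Their median was 0.82 log2, but 0.61, −0.23 and 0.54 log2 within batches 1, 2 and 3 and −0.16 log2 from batches 2 and 3 alone, and the iron exporter Slc40a1 rose by 2.40 ± 0.27 log2. Upp1, which cleaves uridine, had 29.7, 27.8, 27.7, 110 and 134 CPM with IFNγ, against 0.144, 0.120, 0.0861, 0.117 and 0.849 CPM with vehicle. It rose by 7.96 ± 0.32 log2, while its list of 19 nucleoside salvage genes held 6 rises and 6 falls (median 0.28 log2; 0.36, −0.040 and 0.25 log2 within batches 1, 2 and 3).

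At the cell surface, Cd274, which encodes the checkpoint ligand PD-L1, had 306, 297, 330, 1034 and 1987 CPM in IFNγ-treated knockout cells, against 10.4, 11.7, 10.5, 12.1 and 12.6 CPM in vehicle-treated knockout cells. The vehicle libraries were close together and the IFNγ libraries spread with batch, and the rise was 5.64 ± 0.34 log2 (edgeR adjusted p = 2.16e-10). Of 23 costimulatory and checkpoint genes 14 rose and 2 fell (median 1.02 log2). The falls did not hold: there was none without vehicle replicate 3 or 4 or IFNγ replicate 1 or 4 or with the replicate block, and 1 without vehicle replicate 1 or 2 or IFNγ replicate 2 or 3. Slamf7, a self-ligand receptor of activated macrophages, rose by 9.19 ± 0.28 log2 (edgeR adjusted p = 1.26e-14). Havcr2, which encodes TIM-3, had 57.0, 58.8, 59.5, 40.5 and 241 CPM with IFNγ, against 37.1, 37.1, 32.8, 47.8 and 38.1 CPM with vehicle. In batch 2 the IFNγ library lay below the vehicle library, so the groups overlapped. The rise of 1.02 ± 0.28 log2 was 0.52 log2 without the IFNγ library of replicate 5. It was not called from batches 2 and 3 alone.

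Complement and Fc receptor genes rose in most cases. Of 18 complement genes 13 rose and none fell (median 1.48 log2), with 1 fall without wild-type IFNγ replicate 4. C1qb, a chain of the C1q opsonin, had 289, 281, 264, 279 and 225 CPM in IFNγ-treated knockout cells, against 12.2, 8.47, 8.66, 2.29 and 2.30 CPM in vehicle-treated knockout cells. The IFNγ libraries lay close together in all batches, and the rise was 5.40 ± 0.42 log2 (edgeR adjusted p = 1.1e-08). The other chains, C1qa and C1qc, rose by 5.31 ± 0.50 and 5.06 ± 0.44 log2. Fcgr4, an activating receptor for IgG, had 239, 233, 228, 251 and 347 CPM with IFNγ, against 25.5, 27.1, 24.5, 28.6 and 21.0 CPM with vehicle (3.33 ± 0.15 log2, edgeR adjusted p = 4.24e-12). It was 1 of 5 rises, beside 1 fall, among 8 Fc receptor genes (median 1.09 log2).

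Of 25 scavenger, lectin and clearance receptor genes 18 rose and 2 fell (median 1.66 log2), with 1 fall without vehicle replicate 1, 2 or 3 or IFNγ replicate 1, 3, 4 or 5. Cd36, a receptor for oxidized lipids, rose by 4.95 ± 0.29 log2, while Mrc1, the mannose receptor of alternatively activated macrophages, fell by 1.85 on the log2 scale. Lysosomal genes rose broadly, with 23 rises and 2 falls among 38 (median 0.63 log2). Psap, the precursor of the saposins, had 3276, 3190, 3262, 9771 and 9032 CPM with IFNγ, against 905, 921, 899, 984 and 910 CPM with vehicle, and the IFNγ libraries of batches 2 and 3 lay far above those of batch 1 (2.37 ± 0.30 log2). Ctsc, a dipeptidyl peptidase that activates serine proteases, had 1851, 1819, 1881, 1148 and 2365 CPM with IFNγ, against 350, 362, 352, 229 and 219 CPM with vehicle. It rose by 2.62 ± 0.29 log2 without overlap. Ctsf, another cathepsin, had 16.8, 15.9, 15.2, 22.9 and 22.4 CPM with IFNγ, against 58.4, 53.1, 53.8, 81.1 and 71.8 CPM with vehicle, and fell in every batch (−1.77 ± 0.13 log2, edgeR adjusted p = 3.54e-09).

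Matrix proteases, urokinase and their inhibitors held 14 rises and 1 fall among 19 tested (median 2.34 log2), with 2 falls without wild-type IFNγ replicate 4. Mmp13, a collagenase, had 86.6, 80.9, 167, 164 and 2795 CPM in IFNγ-treated knockout cells, against 1.30, 1.20, 1.51, 1.79 and 1.37 CPM in vehicle-treated knockout cells. Every IFNγ library lay above every vehicle library, and that of batch 3 stood alone (7.52 ± 0.68 log2). Serpina3f, a protease inhibitor, rose by 9.67 ± 0.69 log2. Gpnmb, a glycoprotein of lipid-laden phagocytes, had 6349, 6343, 6487, 16576 and 21053 CPM with IFNγ, against 2599, 2648, 2570, 4395 and 3603 CPM with vehicle. Spp1, which encodes osteopontin, had 2127, 2037, 2260, 9401 and 11644 CPM with IFNγ, against 857, 772, 717, 1304 and 1517 CPM with vehicle. Both were higher in batches 2 and 3 in either group and rose without overlap, by 1.67 log2 (Gpnmb) and 2.06 log2 (Spp1).

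**Figure D3:**
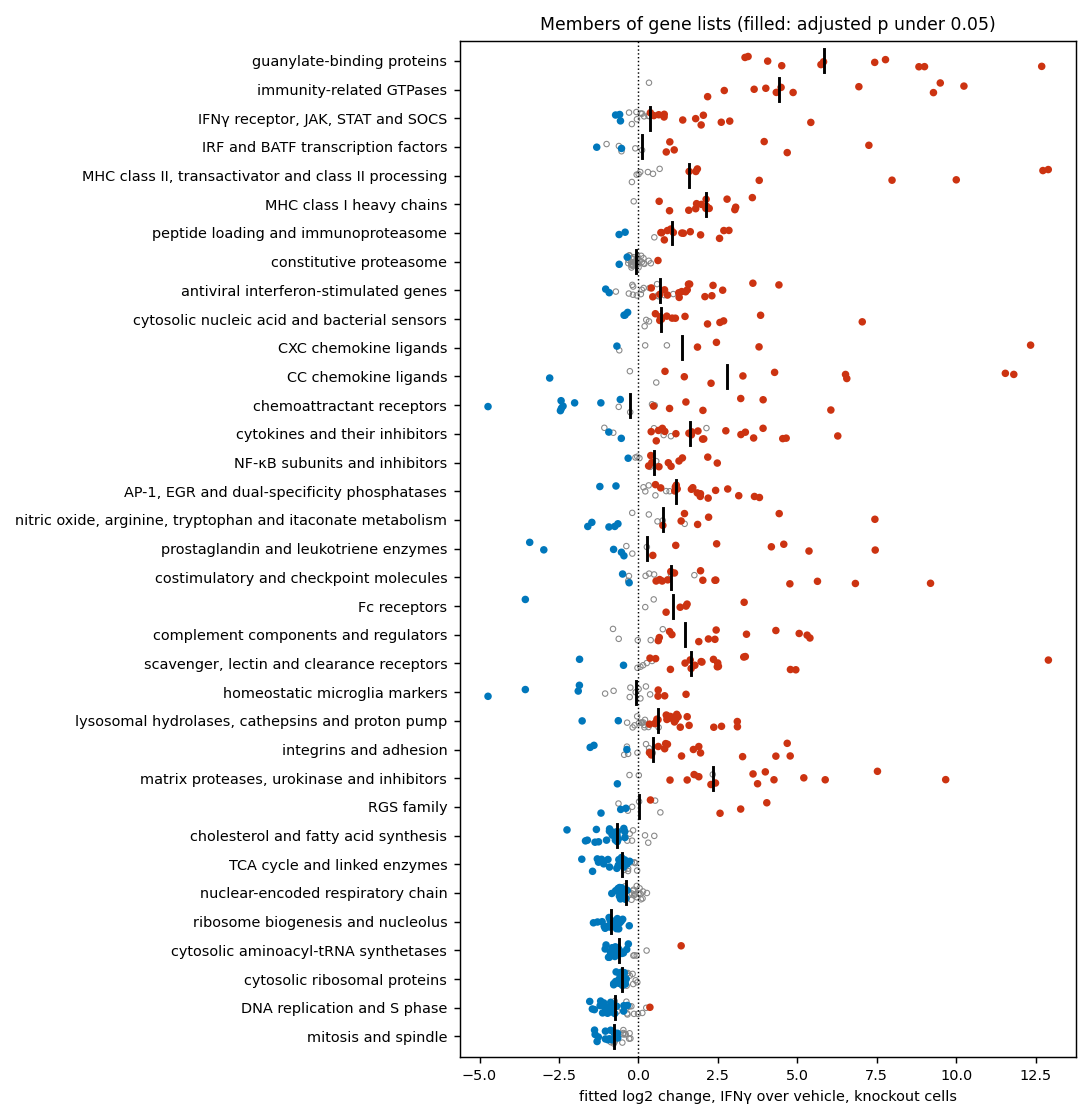
Fitted log2 change (IFNγ over vehicle, knockout cells) of every tested member of 35 gene lists. Each point is a gene, filled where called, bars are list medians and the dotted line is the median of all tested genes (−0.016), with the guanylate-binding proteins farthest to the right (median 5.83).

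The genes of resting microglia did not move as 1 group. Of 17 tested homeostatic markers 4 rose and 4 fell (median −0.085 log2; −0.13, −0.78 and 0.079 log2 within batches 1, 2 and 3). The median was −0.018 log2 without vehicle replicate 4 and −0.14 log2 without IFNγ replicate 5. Cx3cr1, the fractalkine receptor, had 4.58, 4.43, 3.98, 0.624 and 0.872 CPM in IFNγ-treated knockout cells, against 77.1, 85.8, 79.9, 59.8 and 50.9 CPM in vehicle-treated knockout cells. Tmem119, a marker of resident microglia, had 2.10, 2.78, 3.12, 1.31 and 1.22 CPM with IFNγ, against 6.57, 5.42, 5.60, 10.0 and 9.66 CPM with vehicle. Both fell without overlap and were lowest in batches 2 and 3 under IFNγ (−4.73 ± 0.38 log2 for Cx3cr1 and −1.86 log2 for Tmem119). Mef2c, a transcription factor of the resting state, fell by 1.89 on the log2 scale. P2ry12, the receptor that senses ADP, was at 0.0068 ± 0.29 log2 (edgeR adjusted p = 0.988), and its level was below 3 CPM in all 10 libraries. Aif1, which encodes the microglial marker IBA1 and is not a member of this homeostatic list, rose by 4.01 ± 0.30 log2.

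Of 22 genes for Toll-like receptors and their adaptors 8 rose and 4 fell (median 0.24 log2; 0.40, −0.20 and 0.69 log2 within batches 1, 2 and 3), and the falls numbered 2 without the vehicle library of replicate 1 or of replicate 4. The median was 0.46 log2 without vehicle replicate 4 and 0.39 log2 without IFNγ replicate 4. Tlr2, a receptor for bacterial lipoproteins, had 88.4, 86.8, 90.9, 8.80 and 16.5 CPM with IFNγ, against 238, 227, 232, 95.5 and 130 CPM with vehicle. Levels were lower in batches 2 and 3 in both groups, and the fall was −2.07 ± 0.25 log2. Of 15 purinergic receptor and ectonucleotidase genes 5 rose and 2 fell, with a median of 0.17 log2 that was 0.32 log2 without vehicle replicate 2, 0.10 log2 without vehicle replicate 1, 0.095 log2 without IFNγ replicate 5, and 0.011 and 0.016 log2 without vehicle replicate 5 and IFNγ replicate 3. P2ry14, a receptor for UDP-glucose, rose by 3.27 ± 0.46 log2.

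RGS and G protein genes changed in both directions. Of 13 tested RGS genes 4 rose and 3 fell (median 0.021 log2, and −0.12 log2 with plain library totals). Of 16 genes for heterotrimeric G protein subunits 3 rose and 2 fell (median 0.030 log2, and −0.11 log2 with plain library totals), with 1 fall without IFNγ replicate 5. Neither median kept its sign: that of the RGS genes was negative without vehicle replicate 2 or 5 or IFNγ replicate 3 or 4, and that of the G protein genes without vehicle replicate 4 or 5. Rgs1 had 383, 364, 437, 1996 and 1486 CPM in IFNγ-treated knockout cells, against 49.8, 47.4, 46.5, 42.0 and 37.0 CPM in vehicle-treated knockout cells. The vehicle libraries were close together, the IFNγ libraries of batches 2 and 3 were the highest, and the rise was 4.04 ± 0.36 log2 (edgeR adjusted p = 7.2e-08). Gna13, which encodes an alpha subunit, rose by 0.97 ± 0.20 log2. Rgs9 had 0.619, 0.809, 1.28, 3.92 and 17.6 CPM with IFNγ, against 0.541, 0.321, 0.215, 0.894 and 0.566 CPM with vehicle, and its rise of 2.57 log2 was 1.48 log2 without the IFNγ library of replicate 5.

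Tmem176b, a membrane protein of myeloid cells, had 17.9, 17.2, 15.3, 1.31 and 1.92 CPM in IFNγ-treated knockout cells, against 174, 175, 168, 111 and 142 CPM in vehicle-treated knockout cells. It fell by 4.09 on the log2 scale (SE 0.39, edgeR adjusted p = 1.7e-07), and its neighbour and paralog Tmem176a by 3.64. Deptor, an inhibitor of mTOR, had 4.92, 4.08, 4.37, 0 and 1.10 CPM with IFNγ, against 36.7, 42.0, 43.7, 42.6 and 36.4 CPM with vehicle. Hp, which encodes haptoglobin, had 4.78, 3.91, 3.25, 5.17 and 3.61 CPM with IFNγ, against 73.4, 68.0, 64.3, 28.8 and 57.6 CPM with vehicle. All IFNγ libraries lay below all vehicle libraries for these genes, with falls of −3.96 log2 (Deptor) and −3.82 log2 (Hp). Trem3, a myeloid receptor, fell by 4.08 on the log2 scale.

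Transcripts of sterol and fatty acid synthesis genes fell. Of 27 tested genes of the list 20 fell and none rose (median −0.67 log2), and the medians were −0.53, −0.96 and −0.96 log2 within batches 1, 2 and 3. Sqle, which makes squalene epoxide, had 66.4, 75.7, 77.05, 66.0 and 63.9 CPM in IFNγ-treated knockout cells, against 136, 135, 134, 127 and 123 CPM in vehicle-treated knockout cells. Its fall of −0.91 ± 0.16 log2 (edgeR adjusted p = 1.28e-04) was nearly the same in each batch (−0.89, −0.95 and −0.94 log2). Elovl6, which elongates fatty acids, fell by 2.25 on the log2 scale, and the sterol pathway genes Acat2 and Idi1 by 1.67 and 1.61.

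Transcripts of mitochondrial metabolism genes fell as well. Of 28 genes of the TCA cycle and linked enzymes 21 fell and none rose (median −0.52 log2), led by Suclg2, a subunit of succinyl-CoA synthetase, which fell by 1.78 on the log2 scale. Of 36 nuclear genes of the respiratory chain 19 fell and none rose (median −0.40 log2), although within batch 2 the median was 0.067 log2. Ndufs1, a complex I subunit, had 130, 130, 130, 64.1 and 92.5 CPM with IFNγ, against 196, 189, 180, 155 and 156 CPM with vehicle. Every IFNγ library lay below every vehicle library (−0.72 ± 0.10 log2). Of 30 glycolysis and pentose phosphate genes 3 rose and 12 fell (median −0.26 log2; −0.34, −0.54 and 0.049 log2 within batches 1, 2 and 3), and the rises, which numbered 7 without the IFNγ library of replicate 4, included the hexokinase gene Hk3 at 2.25 ± 0.13 log2.

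Most transcripts of the machinery of protein synthesis were lower. All 24 genes of ribosome biogenesis and the nucleolus fell (median −0.85 log2; −0.50, −1.22 and −1.57 log2 within batches 1, 2 and 3). Ncl, which encodes nucleolin, had 1695, 1657, 1705, 511 and 520 CPM in IFNγ-treated knockout cells, against 2368, 2454, 2505, 1563 and 1892 CPM in vehicle-treated knockout cells. Within each batch IFNγ libraries were the lower ones, while across batches the groups overlapped, and the fall of −1.01 ± 0.17 log2 was not called without the batch term. Npm1, another nucleolar protein gene, fell by 0.89 on the log2 scale and Polr1b, an RNA polymerase I subunit gene, by 1.42.

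Of 33 cytosolic ribosomal protein genes 23 fell and none rose (median −0.50 log2, and −0.42, −0.21 and −1.05 log2 within batches 1, 2 and 3). From batches 2 and 3 alone 5 fell (median −0.62 log2), and 16 fell without the batch term. Rpl3 fell by 0.78 on the log2 scale. Ribosomal protein genes took 5.15% and 2.35% of counts in the IFNγ libraries of batches 2 and 3. They took 3.91% to 4.40% in the IFNγ libraries of batch 1 and 5.35% to 6.12% in vehicle libraries. Of 20 aminoacyl-tRNA synthetase genes 15 fell and 1 rose (median −0.62 log2). The rise was that of Wars, the tryptophan enzyme, which is a known IFNγ target, with 352, 367, 378, 480 and 601 CPM with IFNγ, against 175, 162, 161, 158 and 197 CPM with vehicle. All IFNγ libraries lay above all vehicle libraries for Wars (1.35 ± 0.15 log2, edgeR adjusted p = 7.1e-07), while Iars, the isoleucine enzyme, fell by 1.02 on the log2 scale.

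Chaperone genes moved both ways. Of 18 cytosolic and mitochondrial heat shock protein genes 2 rose and 12 fell (median −0.62 log2), and the mitochondrial chaperonin Hspd1 fell by 1.28 on the log2 scale. Of 29 genes of the unfolded protein and integrated stress response 12 rose and 7 fell (median 0.19 log2; 0.18, −0.036 and 0.34 log2 within batches 1, 2 and 3), with 4 falls and a median of 0.39 log2 without the IFNγ library of replicate 4. The median was also 0.32 log2 without vehicle replicate 4, 0.12 log2 without vehicle replicate 2 and 0.13 log2 without IFNγ replicate 1. Hspa5, the chaperone of the endoplasmic reticulum, had 2630, 2773, 2831, 4166 and 3479 CPM with IFNγ, against 1275, 1278, 1244, 1294 and 1117 CPM with vehicle. The groups did not overlap, and the rise was 1.36 ± 0.19 log2 (edgeR adjusted p = 1.55e-05).

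Cell cycle genes fell, but by sizes that depended on batch. Of 34 genes of DNA replication and S phase 19 fell and 1 rose (median −0.72 log2; −0.24, −1.05 and −1.37 log2 within batches 1, 2 and 3). The median was −0.44 log2 without vehicle replicate 5, and the single rise was lost without any 1 of 15 of the 20 libraries. Mcm6, a subunit of the replicative helicase, had 347, 357, 352, 62.8 and 77.9 CPM in IFNγ-treated knockout cells, against 609, 612, 605, 386 and 408 CPM in vehicle-treated knockout cells. The IFNγ libraries of batches 2 and 3 were the lowest of the 10 (−1.53 ± 0.30 log2). Pcna, the sliding clamp of replication, did not pass the test at 0.25 ± 0.21 log2 (edgeR adjusted p = 0.356).

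Of 32 mitosis and spindle genes 15 fell and none rose (median −0.76 log2; −0.42, −0.90 and −1.44 log2 within batches 1, 2 and 3). The count of mitosis falls was 9 without the vehicle library of replicate 5 and 24 without wild-type IFNγ replicate 5, 29 from batch 1 alone and 1 without the batch term. Plk1, a mitotic kinase, had 67.3, 66.3, 69.4, 35.7 and 17.6 CPM with IFNγ, against 111, 126, 128, 94.3 and 104 CPM with vehicle. The groups did not overlap and the fall was −1.36 ± 0.31 log2 (edgeR adjusted p = 0.00163). Ccnb2, a mitotic cyclin, fell by 1.30 on the log2 scale. The falls of Mcm6, Plk1 and Ccnb2 were not called without the batch term. Mki67, a proliferation marker, had 232, 266, 261, 297 and 174 CPM with IFNγ, against 418, 461, 528, 262 and 219 CPM with vehicle, and did not pass the test (−0.51 log2, edgeR adjusted p = 0.18), but was called without wild-type IFNγ replicate 5 (−0.52 log2).

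Inhibitors of the cell cycle were among the rises. Of 22 genes of G1 cyclins, their kinases and inhibitors 7 rose and 3 fell (median 0.12 log2), with 4 rises and a median of −0.029 log2 under plain library totals and the falls at 5 without wild-type IFNγ replicate 4. That median was 0.23, −0.051 and 0.20 log2 within batches 1, 2 and 3, and 0.20 log2 without IFNγ replicate 4. Cdkn1a, which encodes the inhibitor p21, had 123, 120, 129, 178 and 167 CPM with IFNγ, against 78.0, 79.997, 83.9, 96.6 and 75.2 CPM with vehicle. The groups did not overlap (0.77 ± 0.12 log2, edgeR adjusted p = 3.29e-05). The inhibitor gene Cdkn2b rose by 1.26 ± 0.31 log2, while Trp53, which encodes p53, fell by 0.99 on the log2 scale. Of 21 genes of p53 and its targets 11 rose and 4 fell (median 0.53 log2). The medians of this list were 0.094, 0.88 and 0.73 log2 within batches 1, 2 and 3. From batch 1 alone 10 rose and 6 fell. Among 29 genes of the BCL2 family and caspases 14 rose and 2 fell (median 0.52 log2), and Bcl2a1d, an anti-apoptotic member with near-identical copies, rose by 2.47 ± 0.15 log2.

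The size of the response differed between batches. Over the called genes the median size of change was 0.58 log2 within batch 1, 1.16 log2 within batch 2 and 1.22 log2 within batch 3. In 1898 of 2937 rises and 2131 of 3000 falls the change was larger in both batch 2 and batch 3 than in batch 1. Batch 1 changes are means over 3 libraries per group, while those of batches 2 and 3 rest on 1 per group and hold more noise. The part of this in the sizes was not tested. A change over 1 log2 in each batch was held by 787 rises and 280 falls, and 328 called genes had both signs within the batches. Malat1 was 1 of these, with 53.2, 54.0, 59.4, 1625 and 1143 CPM in IFNγ-treated knockout cells, against 56.1, 48.2, 67.5, 120 and 52.3 CPM in vehicle-treated knockout cells. Its fitted rise of 1.94 log2 (edgeR adjusted p = 0.0129) was not called without the IFNγ library of replicate 4 (1.39 log2) or 5 (1.23 log2) or the vehicle library of replicate 4 (1.62 log2) or 5 (1.52 log2).

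**Figure D4:**
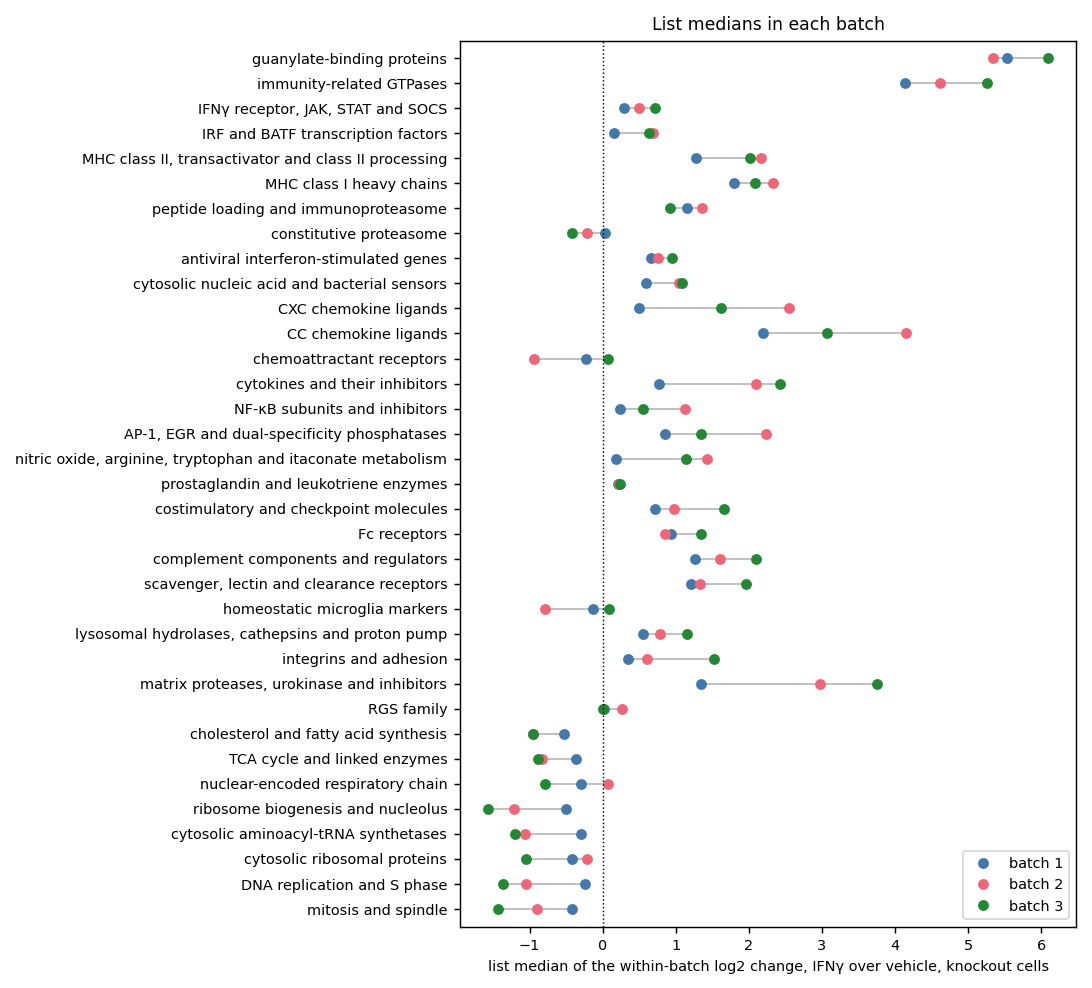
Median within-batch log2 change (IFNγ over vehicle, knockout cells) of 35 gene lists. Points are batches 1, 2 and 3, each from its own libraries, and the guanylate-binding list lies at 5.53, 5.34 and 6.10 while the nucleolar list lies at −0.50, −1.22 and −1.57.

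The response of the knockout cells was set against that of the wild-type cells by testing the difference of the 2 responses in the same fit. The difference passed for 6.5% of tested genes, with 3.64% positive (the knockout response minus the wild-type response above 0) and 2.86% negative. Among the 5937 knockout calls 5034 were called in the same direction in wild-type cells and 47 in the other direction. The share of all tested genes called in wild-type cells is not given here, so these counts stand without a background. The positive count was 291 to 836 and the negative count 247 to 617 when 1 library was left out, against 500 and 394 with all libraries. The lowest positive count came without vehicle replicate 1 and the highest without IFNγ replicate 5, and the lowest negative count without vehicle replicate 2 and the highest without IFNγ replicate 4, all knockout libraries. Differences named below were called without each of the 20 libraries in turn unless stated otherwise. From batches 2 and 3 alone, which hold fewer libraries, 8 of the 30 differences of named genes were called. These were C1qa, C1qb, C1qc, Batf2, Ccl12, Cd36, Plk1 and Ccnb2, and the other genes named below were not called there. Without the batch term 11 of the 30 were called.

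The C1q genes rose more in knockout cells. C1qb rose by 5.40 log2 in knockout cells and 2.06 log2 in wild-type cells, a difference of 3.34 log2 (edgeR adjusted p = 8.0e-04), and the differences of C1qa and C1qc were 3.50 and 3.10 log2. Of 18 tested complement genes 6 had a positive and 1 a negative difference (2 negative without knockout vehicle replicate 5). Ifitm3, an antiviral membrane protein, had 86.7, 82.7, 81.5, 74.8 and 48.1 CPM in IFNγ-treated knockout cells, against 8.12, 7.55, 6.81, 3.03 and 5.90 CPM in vehicle-treated knockout cells. It rose by 3.60 ± 0.30 log2 in knockout cells and stood at 0.020 log2 in wild-type cells, a difference of 3.58 log2 (edgeR adjusted p = 4.9e-05). The differences of Calhm6, a channel protein of macrophages, Ccl12 and Batf2 were 3.62, 3.72 and 3.36 log2. Spp1 (1.69 log2), Cd36 (1.59 log2), Aif1 (1.73 log2) and Psmb9 (1.06 log2) also had positive differences.

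Other genes responded less in knockout cells. Plin2, which coats lipid droplets, had 185, 178, 198, 135 and 241 CPM in IFNγ-treated knockout cells, against 124, 119, 112, 130 and 121 CPM in vehicle-treated knockout cells. Its change was 0.59 log2 in knockout cells and 3.15 log2 in wild-type cells, a difference of −2.57 log2 (edgeR adjusted p = 6.6e-05). The rise within knockout cells was not called without the vehicle library of replicate 2, 3 or 5 or the IFNγ library of replicate 1 or 3. Dusp1 (−2.004 log2), Rgs1 (−2.26 log2), Hk3 (−0.996 log2) and Bcl2a1d (−1.01 log2) rose in both lines with a negative difference. Ccl9 fell further in knockout cells (−1.20 log2).

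For some genes the difference depended on single libraries. The Cd274 difference of −1.63 log2 was not called without wild-type IFNγ replicate 5, and that of Upp1 (−2.28 log2) not without wild-type vehicle replicate 4 or knockout vehicle replicate 5. The P2ry12 difference of 1.54 log2 was not called without knockout vehicle replicate 2 or knockout IFNγ replicate 2 or 3. The differences of Slamf7 (1.27 log2), Gpnmb (−0.92 log2), Mmp13 (−3.23 log2) and Rgs10 (0.84 log2, edgeR adjusted p = 0.044) were lost without any 1 of 9, 13, 15 and 15 of the 20 libraries.

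For the mitosis, sterol synthesis and ribosomal protein lists all called differences were positive, but their number depended on single libraries and batches. The wild-type IFNγ libraries also differed in RNA makeup. The TMM factors of the IFNγ libraries of batches 2 and 3 were 0.892 and 0.879 in knockout cells and 0.635 and 0.764 in wild-type cells, and the 10 most abundant genes took 9.72% and 9.46% of counts in knockout cells and 17.1% and 14.7% in wild-type cells. Malat1 was at 1446 and 1004 CPM of plain library totals there in knockout cells and at 1514 and 955 CPM in wild-type cells, and in the IFNγ libraries of batch 1 at 55.9 to 62.7 CPM in knockout cells and 355 to 386 CPM in wild-type cells. The part of this in the differences was not tested. Of 32 mitosis genes 21 had a positive difference and none a negative one, with list medians of −0.76 log2 in knockout cells and −2.21 log2 in wild-type cells. The count was 10 without knockout vehicle replicate 1, 2 or 3, 28 without knockout vehicle replicate 5, 11 with the replicate block, 8 with plain library totals and 2 without the batch term. It was also 11 without wild-type vehicle replicate 5 and 13 without knockout IFNγ replicate 1, 2 or 3. Plk1 changed by −1.36 log2 in knockout cells and −3.31 log2 in wild-type cells (difference 1.95 log2, edgeR adjusted p = 0.012), and the difference of Ccnb2 was 2.13 log2. Of 27 sterol and fatty acid synthesis genes 10 had a positive difference and none a negative one (medians −0.67 log2 in knockout and −1.20 log2 in wild-type cells), among them Acat2 (1.57 log2) and Idi1 (1.70 log2). From batches 2 and 3 alone none of the sterol differences was called and their median was −0.097 log2. Of 33 ribosomal protein genes 9 had a positive difference and none a negative one, but 2 to 4 without any 1 of 14 of the 20 libraries, 17 without wild-type IFNγ replicate 4, 25 without knockout IFNγ replicate 5 and 0 from batches 2 and 3 alone. The mannose receptor gene Mrc1 also fell less in knockout cells (difference 1.37 log2).

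**Figure D5:**
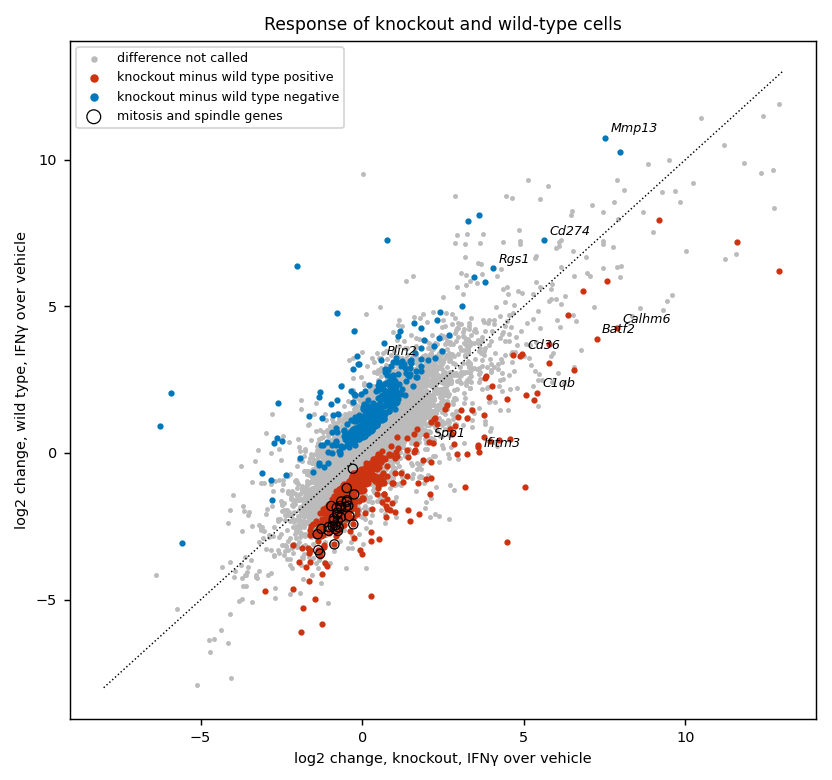
Fitted log2 response to IFNγ of each tested gene in knockout cells (x) and in wild-type cells (y). Coloured points are genes whose difference of responses was called, open circles are mitosis and spindle genes, which lie mostly below the diagonal (list medians −0.76 in knockout and −2.21 in wild-type cells).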

How the data were processed

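RNA was poly(A)-enriched and sequenced; the deposited table holds raw counts per gene for 20 libraries, and per the submitters' processing notes the tools included FastQC, Trim Galore, STAR and DESeq2 with build GRCm39. Not given in the sources used here are the tool that counted reads, its strand mode and the annotation; reads of overlapping genes on opposite strands cannot be told apart. The table lists 56941 gene IDs, of which 28314 had no read; 91.2% had a symbol in GENCODE vM21.

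Counts were scaled by TMM and filtered with filterByExpr over the 4 groups in edgeR 4.0.16 (R 4.3.3), which left 13755 genes. A robust quasi-likelihood fit over all 20 libraries had terms for group and batch (14 residual degrees of freedom). Calls were made at a Benjamini-Hochberg adjusted p below 0.05 over all tested genes, and "rose" and "fell" mean called. Within-batch changes are differences of mean log2 CPM with a prior count of 2. Rgs10 was also tested by exact permutation. A floor of 3 counts over a group is 0.0259 CPM in IFNγ and 0.0238 CPM in vehicle knockout libraries.

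Replicates were not copies: their chi-square per degree of freedom ran from 4.12 to 7.27 inside batch 1 and from 31.7 to 379 between batches. The biological coefficient of variation was 24.2% over all libraries and 5.9% within batch 1. Libraries of a group in batch 1 were thus much closer to each other than to those of other batches. The fit counts them as separate replicates, and its batch term does not let the response differ between batches. SEs, p-values and the counts from batch 1 alone may therefore look stronger than independent batches would give. The procedure was tested on simulated data with 200 changed genes. That simulation held no batch effect and no response that differs between batches, so it cannot speak to these features of the data.

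Members and gene lists were chosen with earlier results of these data known. Named genes follow a rule, which gave 398 genes. It took the largest called changes each way, the largest changes in CPM, a panel, and genes with both signs between batches. From each list it took up to 3 called members each way and the highest uncalled member. It also took the largest called differences of the responses each way, so some genes were named because their difference was called. Those in the text were picked from the 398 after their values were seen. Alternatives were RLE size factors, plain totals, other filters, DESeq2 1.42.0, limma-voom (limma 3.58.1), no batch term, a replicate block, knockout libraries alone, single batches left out and each library left out. Some genes and lists are not reported here.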

Additional observations from a re-analysis of the deposited data

Results flagged for a closer look

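The 117 named genes gave 234 combinations of a gene and a group of 5 libraries. Combinations whose highest library was below 1 CPM were left out, so fewer than 234 were tested. In 24 of those tested, 1 library stood apart from the other 4 by more than Dixon's 95% critical value of 0.71. Chance gives about 1 in 20 for exchangeable libraries and genes not picked by their values; neither holds here, so the count is a description. All 24 were libraries of batch 2 or batch 3, each with 1 library per group, while 3 of the 5 libraries of a group shared batch 1. In IFNγ replicate 5 these were Jak2 (114 CPM), Socs1 (137), Socs3 (339), Gbp2 (6129), Psmb9 (122), Ccr1 (81.9), Fcgr4 (347), Mmp13 (2795), P2ry14 (30.2), Rgs9 (17.6), Havcr2 (241), Flt1 (772) and Il1b (21.0 CPM). In IFNγ replicate 4 they were Rgs10 (50.5 CPM), Bcl2a1d (92.4) and Neat1 (2457 CPM). Among vehicle libraries, replicate 4 stood apart for Irf8 (105 CPM), Tnfaip3 (29.7), Psap (984), Polr1b (106.3), Trp53 (359), Kdr (213) and Malat1 (120 CPM), and replicate 5 for Hspa5 (1117 CPM).

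The difference of the responses (knockout minus wild type) was called by edgeR for 30 of the named genes. It was positive for Rgs10 (0.84 log2), Batf2 (3.36), Psmb9 (1.06), Ccl12 (3.72), Slamf7 (1.27), C1qa (3.50), C1qb (3.34), C1qc (3.10), Cd36 (1.59), Mrc1 (1.37), Spp1 (1.69), P2ry12 (1.54), Acat2 (1.57), Idi1 (1.70), Plk1 (1.95), Ccnb2 (2.13), Aif1 (1.73), Ifitm3 (3.58) and Calhm6 (3.62 log2). It was negative for Ccl9 (−1.20 log2), Dusp1 (−2.004), Upp1 (−2.28), Cd274 (−1.63), Gpnmb (−0.92), Mmp13 (−3.23), Rgs1 (−2.26), Hk3 (−0.996), Bcl2a1d (−1.01), Kdr (−1.46, lost without any 1 of 14 of the 20 libraries) and Plin2 (−2.57 log2).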

How the results depend on the processing

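Of 109 named genes called in knockout cells, 99 were called with the same sign under all 33 alternatives. These genes were picked by their values, many for large changes, so that share does not stand for all calls. Of all 5937 calls, 5907 kept call and sign with DESeq2 and 5325 in batch 1 alone. Only 3868 did so without the batch term and 3579 from batches 2 and 3 alone. Il1b (−0.26 log2) and Malat1 (−0.022 log2) had the other sign in batch 1 alone. Without the batch term 1605 genes fell, against 3000 with it. Leaving out 1 library gave 2413 to 3159 rises and 2498 to 3412 falls.

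The count of differences between the responses was less stable (500 positive and 394 negative). It was 324 and 213 with plain library totals, 827 and 653 with DESeq2, 70 and 68 without the batch term, 4108 and 2988 from batch 1 alone, 1083 and 823 without batch 2, 932 and 699 without batch 3, and 104 and 17 from batches 2 and 3 alone, an alternative chosen after seeing the data. Leaving out 1 library gave 291 to 836 positive and 247 to 617 negative calls. Of the 30 differences of named genes 22 held without each library and 5 in every alternative, and that of Idi1 was −0.021 log2 in batches 2 and 3 alone. The cause was not tested.

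IFNγ and vehicle libraries share only a number: in batch 1 same-number libraries correlated at 0.018, −0.033 and 0.0004. With the replicate block 2670 genes rose and 2692 fell, and 287 differences were positive and 243 negative.

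Rgs10 passed the test with plain library totals (−0.46 log2), in batch 1 alone (−0.56 log2) and without batch 2 (−0.57 log2); leaving out 1 library gave −0.24 to −0.54 log2, and −1.62 to −10.4 CPM in the permutation test. In the 250 bases before the start alone, 8.13% of promoters held the GAS letters and 3.46% the ISRE letters.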

Other observations

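Further gene lists were measured in the same comparison of IFNγ-treated with vehicle-treated knockout cells. Of 7 tested Schlafen genes 4 rose and 1 fell (median 0.55 log2), and of 10 genes for ubiquitin-like modifiers and their enzymes 7 rose and none fell (median 0.45 log2), with 4 rises without the vehicle library of replicate 4 or of replicate 5. Of 25 integrin and adhesion genes 14 rose and 3 fell (median 0.45 log2), with 5 falls without the vehicle library of replicate 5. Autophagy genes held 10 rises and 1 fall among 23 (median 0.28 log2), with 6 rises without the vehicle library of replicate 5 or under plain library totals. Of 20 macrophage transcription factor genes 8 rose and 3 fell (median 0.35 log2, and 0.23 log2 without IFNγ replicate 4).

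Mitochondrial ribosomal protein genes behaved like their cytosolic counterparts in direction, with 20 falls and no rise among 32 (median −0.41 log2) and 13 falls without the IFNγ library of replicate 5. Of 28 translation initiation and elongation factor genes 3 rose and 16 fell (median −0.35 log2). Genes of cholesterol efflux and LXR signalling held 5 rises and 3 falls among 13 (median 0.19 log2, and 0.10 log2 without IFNγ replicate 5). Of 18 STIM, ORAI and calcium entry genes 5 rose and 6 fell, with list medians of −0.10, −0.24 and 0.11 log2 within batches 1, 2 and 3.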
